A study of Mus musculus with 2 samples.

Results

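The genes described here are the cytochrome P450 enzymes of families 2 and 3, taken from a deposited gene table of mouse hepatocytes as every row whose symbol is Cyp2 or Cyp3, a subfamily letter and a number. Of 36801 genes kept, 54 met that rule, 47 in family 2 and 7 in family 3, over 14 subfamilies. The table came from RNA sequencing of primary hepatocytes, liver parenchymal cells taken from C57Bl6 mice and kept in culture. All cells were in William E medium with serum, insulin and dexamethasone, a synthetic glucocorticoid. The control cells received DMSO, the solvent, and the treated cells received GW3965 at 1 µM, a man-made compound that activates the liver X receptors (LXR). There was 1 library in each group, so no difference has a replicate check, and differences between cultures cannot be told apart from the treatment. For the sex, age and number of the mice and the length of the treatment nothing is stated in the sources used here. In the table the treated library appears as GL. These letters were taken to mean GW3965, as the labels hold 1 sample beside DMSO, and this is uncertain.

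Cytochrome P450 enzymes are haem proteins that insert an oxygen atom into their substrates, with electrons passed on by the reductase Por. Families 2 and 3 hold the main drug-metabolising P450 enzymes of the liver, along with enzymes that hydroxylate steroids and bile acids and make epoxides of arachidonic acid. Many are induced through the nuclear receptors CAR (Nr1i3) and PXR (Nr1i2), which bind DNA together with RXR, the partner that LXR also uses. Several are known to differ between male and female mouse liver, and many fall when hepatocytes are cultured.

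Levels are given as FPKM, fragment numbers divided by transcript length and library size, a scale on which genes can be compared. Steps of the low values put the depth at about 63000000 fragments for DMSO and 78200000 for GW3965. The label of the treated library was checked on 10 LXR targets, which can show LXR activation but not which compound or mixture gave it. Of the 8 at an FPKM of at least 1, 6 were at least 1.5-fold higher and 0 lower in GW3965, with a median log2 ratio of 1.32. Abca1, the cholesterol exporter, stood at 14.6 in DMSO and 81.1 in GW3965. Levels of the hepatocyte markers spread widely. Fgb, a fibrinogen chain, stood at 2458 and 2000 FPKM (log2 ratio -0.30), Serpina1a, a secreted protease inhibitor, at 138 and 99.9 (-0.46), and Cps1, of the urea cycle, at 1.497 and 2.10 (0.31). Tat, a glucocorticoid-induced enzyme named after its values were seen, lay under the minimum at 0.962 and 0.447. The 10 markers at the minimum had a median log2 ratio of -0.05, with 0 past 1.5-fold either way and ratios in both directions. The summed FPKM of markers of other cell types was 4160 and 3403 for bile duct cells, nearly all of it Spp1, 230.2 and 230.4 for macrophages, 128 and 152 for endothelial cells, 90.1 and 96.4 for stellate cells and fibroblasts, 1.64 and 1.42 for lymphocytes, and 0.130 and 0.281 for red blood cells, the only list with a marker at 0 in both libraries. Cd14 (111 and 99.3) and Cd68 (74.9 and 93.9) held most of the macrophage sum, and Dcn (64.8 and 65.6) most of that for stellate cells and fibroblasts. The median log2 ratios were 0.03, -0.14, 0.27 and 0.18 for the first 4 of these lists. The endothelial median is the value of Pecam1, whose test is marked as failed in the authors' deposited table. Among the markers of these lists, 1 passed 1.5-fold, the endothelial Clec4g, which was lower (2.14 and 0.996) and reached an FPKM of 1 only in DMSO. In such bulk samples, fewer cells of a type and less RNA per cell cannot be told apart, and the part of other cells in the ratios was not tested.

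Of the 54 genes, 27 reached an FPKM of 1 in one library or both, called the minimum here, and 27 did not. Of the latter, 18 lay between 0 and 1 in at least one library and 9 were listed at 0 in both. Among the 27 genes at the minimum, 0 were at least 1.5-fold higher in GW3965 and 0 at least 1.5-fold lower, with 1 added to each FPKM. Over all 11796 genes at that minimum, 1.02% were higher by that rule and 1.33% lower, so a count of 0 among 27 genes is near the background. Their median log2 ratio was 0.06, against 0.01 over all genes at the minimum, and their median size of ratio was 0.09, against 0.10. The ratio was above 0 for 19 genes and below 0 for 8, against 52.9% above 0 over all genes. Centring on the median of all genes or scaling the libraries to the same sum gave the same counts. The ratios ran from -0.28 for Cyp2d22 to 0.45 for Cyp2c70. The central 90% of all genes, between the 5th and 95th percentiles, spanned -0.33 to 0.29. Cyp2c70, Cyp2d26 and Cyp2a5 lay above that span and 0 members lay below it.

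**Figure D1:**
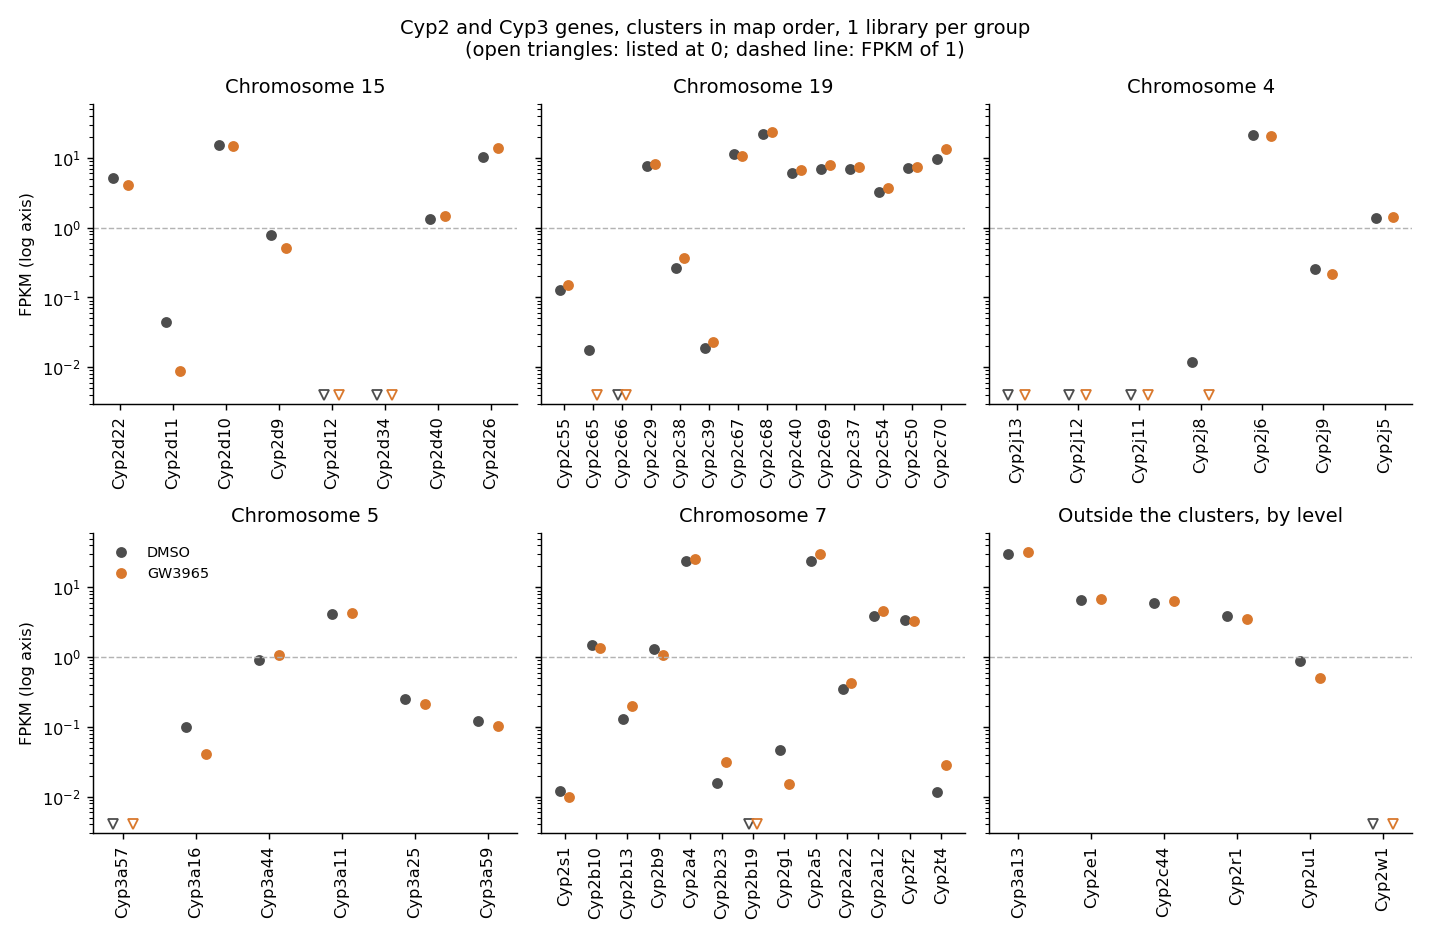
FPKM on a log axis for each of the 54 genes in the DMSO library (grey) and the GW3965 library (orange), 1 library each, with the clustered genes in map order, the others by level, and genes listed at 0 as open triangles. Above the dashed line, the minimum of 1, both points of a gene lie close together, while neighbouring genes of a cluster can lie far apart, such as Cyp2a4 at 24.0 and Cyp2b23 at 0.0156 in DMSO.

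The authors' deposited table carries their own test of the reads of these 2 libraries, which compares those libraries rather than treatments. Of the 54 genes, 35 were tested in the authors' deposited table and 0 were called, against 0.285% of all 15090 genes tested. Of the 35, 1 had in the authors' deposited table an unadjusted p under 0.05, Cyp2d26 (p = 0.0419, q = 0.999957), against 3.34% of all genes tested. The statistic in the authors' deposited table gives a standard error of the log2 ratio of plain FPKM values, which ran from 0.18 to 0.40 over the 27 genes, with a median of 0.25. The 95% intervals made from it held 0 for 26 of 27 genes, with Cyp2d26 the exception. For all 27 the intervals lay inside 2-fold in either direction, with bounds from -0.998 to 0.975, and for 11 of them inside 1.5-fold. A change of 2-fold or more therefore lay outside these intervals for each gene at the minimum, while a change of 1.5-fold lay inside them for 16 genes.

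**Figure D2:**
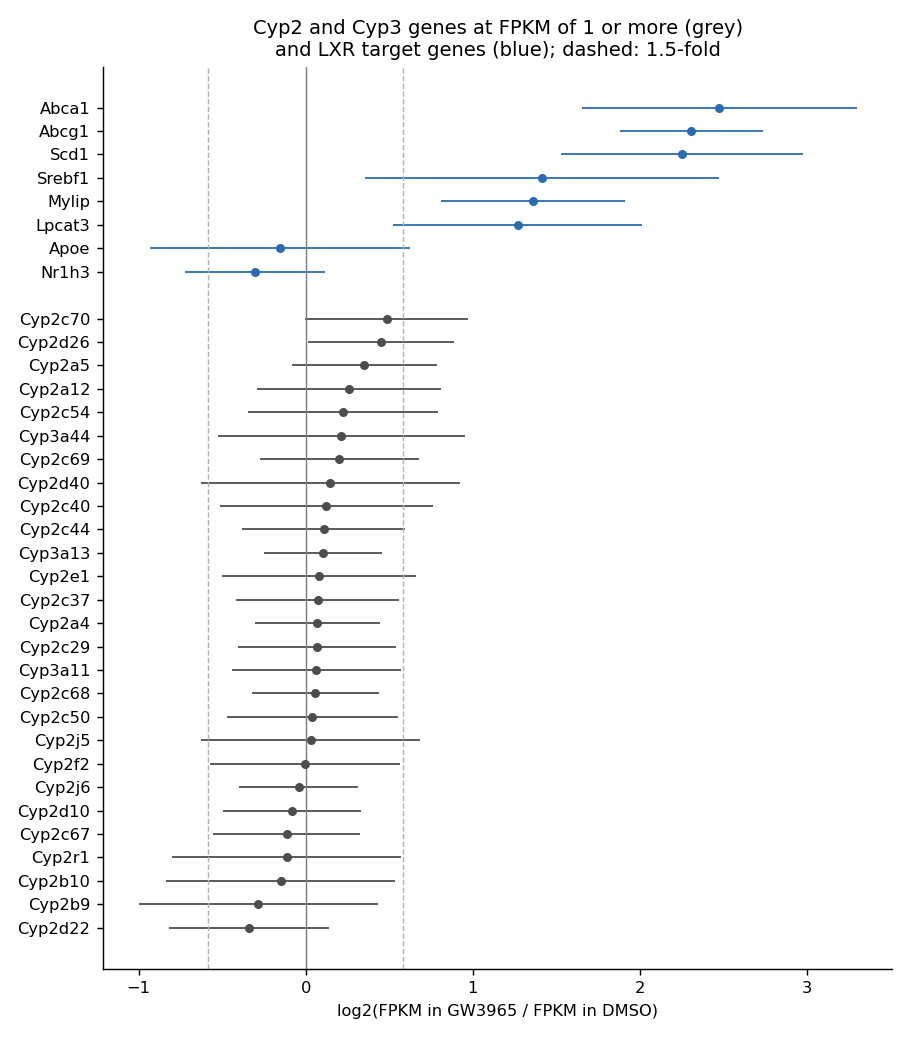
log2 of the FPKM in GW3965 over that in DMSO for the 27 genes at an FPKM of at least 1 (grey) and for 8 LXR targets (blue), with lines for the 95% interval made from the statistic in the authors' deposited table and dashed lines at 1.5-fold. All grey points lie between the dashed lines, and 6 of the 8 blue points lie to the right of them.

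Fragment numbers estimated from depth and transcript length give a second interval, which covers counting error only and leaves out any spread between cultures. It could be made for 26 of the 27 genes, Cyp2d40 having no transcript with a long enough coding part. The estimated fragments in DMSO ran from 104 for Cyp3a44 to 5353 for Cyp3a13. The 95% counting interval of the FPKM ratio lay inside 1.5-fold for 23 genes. It left out a ratio of 1 for 8 genes: above it for 7, Cyp2a5, Cyp2a12, Cyp2c54, Cyp2c69, Cyp2c70, Cyp2d26 and Cyp3a13, and below it for 1, Cyp2d22. By the same length rule and interval, 36.1% of 6450 genes at the minimum lay above it and 20.9% below. An interval of this kind that leaves out 1 was thus common among all genes, and 8 of 26 is no more than that background.

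The summed FPKM of the 54 genes was 249 in DMSO and 268 in GW3965, a ratio of 1.08. Genes at the minimum made up 98.6% of the DMSO sum. Cyp3a13, Cyp2a4, Cyp2a5, Cyp2c68 and Cyp2j6 together held 48.7% of the sum in DMSO and 49.1% in GW3965. By subfamily, Cyp2c held 35.3% of the DMSO sum, Cyp2a 20.8%, Cyp3a 14.4%, Cyp2d 13.3% and Cyp2j 9.10%. In GW3965 the shares were 35.6%, 22.6%, 14.3%, 13.0% and 8.23% in that order, so the order of the subfamilies was the same in both libraries.

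**Figure D3:**
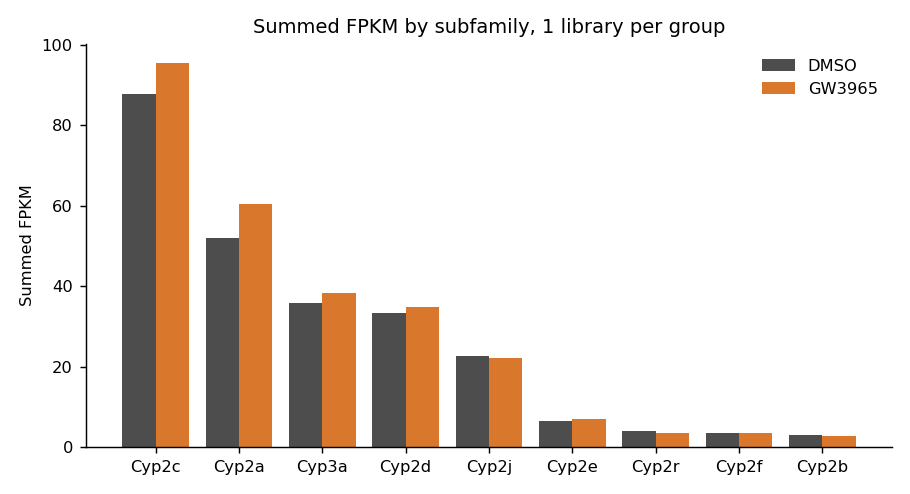
Summed FPKM of each subfamily with a gene at the minimum, in DMSO (grey) and GW3965 (orange), 1 library each and hence without error bars. Cyp2c is the tallest pair (87.9 and 95.5) and Cyp2b the shortest (2.96 and 2.66), and the bars fall in the same order for both libraries.

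The Cyp3a subfamily holds the mouse counterparts of the human drug-metabolising enzyme CYP3A4. Cyp3a13 (ENSMUSG00000029727, mm9 chr5:138334160-138362847) lies apart from the other Cyp3a genes and had the highest level of all 54 genes, 30.3 FPKM in DMSO and 32.6 in GW3965. Its fold was 1.08, with a counting interval of 1.04 to 1.11. Cyp3a11, a textbook PXR target and an abundant P450 of mouse liver, stood at 4.12 and 4.31, a log2 ratio of 0.05. Cyp3a44, known as higher in females, stood at 0.911 and 1.06 and passed the minimum only through GW3965. Cyp3a25, Cyp3a59 and Cyp3a16 were at 0.252, 0.120 and 0.1005 in DMSO and at 0.215, 0.104 and 0.0404 in GW3965. Cyp3a57 was listed at 0 in both. The 3 genes at the minimum had a median log2 ratio of 0.10. Cyp3a13 thus held most of the Cyp3a sum of 35.8 and 38.3 FPKM, and the 6 genes of the Cyp3a cluster on chromosome 5 together held 5.50 and 5.73.

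The Cyp2a subfamily had 3 of 4 genes at the minimum and a median log2 ratio of 0.21, the highest median among the subfamilies. Cyp2a5 (ENSMUSG00000005547, mm9 chr7:27620324-27628567), the coumarin hydroxylase, stood at 23.8 in DMSO and 30.3 in GW3965. Its log2 ratio was 0.34, its fold 1.28, and the counting interval of that fold 1.22 to 1.34. The p of Cyp2a5 in the authors' deposited table was 0.111. Cyp2a4, a testosterone hydroxylase known as higher in females, stood at 24.0 and 25.2, a log2 ratio of 0.07. The split of reads between these genes is uncertain, because 63.7% of the 25-base words of Cyp2a4 transcripts also occur in those of Cyp2a5. Cyp2a12, another steroid hydroxylase, stood at 3.84 and 4.60 (log2 ratio 0.21), and Cyp2a22 at 0.351 and 0.430. All 4 genes of the subfamily were higher in the GW3965 library, by different amounts.

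The Cyp2b genes are the classic targets of CAR, and their levels were low. Cyp2b10, the gene most often used to read CAR activity in mice, stood at 1.501 in DMSO and 1.35 in GW3965, and its log2 ratio was -0.09. Cyp2b9, known as higher in females, stood at 1.31 and 1.08, a log2 ratio of -0.15. Cyp2b13 was at 0.129 and 0.200, Cyp2b23 at 0.0156 and 0.0313, and Cyp2b19 was listed at 0 in both. Both genes at the minimum were lower in the GW3965 library, within the counting interval of each (Cyp2b10, 0.723 to 1.12; Cyp2b9, 0.648 to 1.04).

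The Cyp2c subfamily was the largest, with 15 genes, 10 of them at the minimum, and a median log2 ratio of 0.08. Of the 10, 9 were higher in the GW3965 library and Cyp2c67 was lower. Cyp2c70 (ENSMUSG00000060613, mm9 chr19:40227843-40261823), the enzyme that makes the muricholic acids of rodent bile, stood at 9.70 in DMSO and 13.6 in GW3965. It had the highest log2 ratio of the genes at the minimum, 0.45, and its plain fold was 1.40, with a counting interval of 1.29 to 1.52. The p of Cyp2c70 in the authors' deposited table was 0.0526. Its reads are little confounded with other genes, since 0.40% of its 25-base words occur in transcripts of another gene.

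Several Cyp2c enzymes oxidise arachidonic acid, some of them to epoxides. Among them Cyp2c29 stood at 7.76 and 8.13, Cyp2c37 at 7.01 and 7.37, Cyp2c50 at 7.11 and 7.31, Cyp2c44 at 5.89 and 6.34, Cyp2c40 at 6.13 and 6.68, and Cyp2c54 at 3.21 and 3.74. Their log2 ratios lay between 0.03 for Cyp2c50 and 0.17 for Cyp2c54. Cyp2c68 was the most abundant of the subfamily, at 22.4 and 23.3 (log2 ratio 0.06), followed in DMSO by Cyp2c67 at 11.3 and 10.5 (-0.10), while Cyp2c69 stood at 6.97 and 8.02 (0.18). The division among Cyp2c40, Cyp2c67, Cyp2c68 and Cyp2c69 is uncertain, since 69.5% to 76.9% of their 25-base words occur in transcripts of other genes. The same holds to a lesser degree for Cyp2c37 (54.7%), Cyp2c54 (49.2%) and Cyp2c50 (34.2%). The remaining 5 were low, Cyp2c38 at 0.268 and 0.366, Cyp2c55 at 0.129 and 0.152, and Cyp2c39 at 0.0190 and 0.0230. Cyp2c65 was at 0.0178 and listed at 0 in GW3965, and Cyp2c66 was listed at 0 in both.

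The Cyp2d genes, relatives of the human drug-metabolising enzyme CYP2D6, had the widest range of ratios of a subfamily. Of 8 genes, 4 were at the minimum, and their median log2 ratio was 0.01. Cyp2d26 (ENSMUSG00000022445, mm9 chr15:82620537-82624675) stood at 10.3 in DMSO and 14.1 in GW3965, and its log2 ratio was 0.42. Its fold was 1.37, with a counting interval of 1.27 to 1.48. Cyp2d22 (ENSMUSG00000061740, mm9 chr15:82200958-82210690) stood at 5.20 and 4.12, a log2 ratio of -0.28, the lowest of the genes at the minimum. Its fold was 0.791, with a counting interval of 0.718 to 0.871, and its p in the authors' deposited table was 0.168. These genes lie at the opposite ends of the Cyp2d cluster, and 19.1% and 8.14% of their 25-base words occur in transcripts of other genes. Cyp2d10 was the most abundant, at 15.5 and 14.7 (log2 ratio -0.08), and Cyp2d40 stood at 1.34 and 1.48 (0.09). Their shares of such words were 56.9% and 33.0%, so the division of their reads is uncertain. Cyp2d9, a testosterone hydroxylase known as higher in males, was under the minimum at 0.783 and 0.519. Cyp2d11 was at 0.0441 and 0.00888, and Cyp2d12 and Cyp2d34 were listed at 0.

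Of the subfamilies that metabolise small molecules with a single gene, Cyp2e1 (Cyp2e), the ethanol- and acetaminophen-oxidising enzyme of pericentral hepatocytes, stood at 6.53 in DMSO and 6.90 in GW3965. Cyp2f2 (Cyp2f), a naphthalene-oxidising enzyme of periportal hepatocytes, stood at 3.36 and 3.35. Their log2 ratios were 0.07 and 0.00. Cyp2r1, the vitamin D hydroxylase of the liver, stood at 3.84 and 3.54, a log2 ratio of -0.09.

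Among the Cyp2j enzymes, some of which make epoxides of arachidonic acid, Cyp2j6 stood at 21.0 in DMSO and 20.5 in GW3965. Its log2 ratio was -0.04. Cyp2j5 stood at 1.37 and 1.40, Cyp2j9 at 0.259 and 0.218, and Cyp2j8 at 0.0120 and at 0 in GW3965. Cyp2j11, Cyp2j12 and Cyp2j13 were listed at 0 in both. Cyp2j6 thus held nearly the whole of the subfamily's 22.7 and 22.1 FPKM.

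Under the minimum, 16 genes were above 0 in both libraries. By plain FPKM, 5 of them were at least 1.5-fold lower in GW3965 and 3 at least 1.5-fold higher, against 22.2% lower and 19.4% higher of all 6411 such genes. The counting interval left out a ratio of 1 for 2 of the 16, both lower, against 11.6% lower and 6.41% higher of 2325 such genes with an interval. These counts are small beside shares of that size, and nothing is read from them. Cyp2u1, a fatty acid hydroxylase, stood at 0.881 and 0.505, about 87 and 62 fragments, a fold of 0.573 with an interval of 0.407 to 0.804, and its p in the authors' deposited table was 0.0607. For Cyp2d9, with about 77 and 63 fragments, the fold was 0.663 and the interval 0.464 to 0.931. Both were singled out after their values were seen. The other single-gene subfamilies lay near or at 0, with Cyp2g1 at 0.0466 and 0.0150, Cyp2s1 at 0.0122 and 0.00984, Cyp2t4 at 0.0117 and 0.0282, and Cyp2w1 listed at 0 in both. Just outside the rule for symbols, Cyp3a41a stood at 0.576 and 0.585, Cyp3a41b at 0.05002 and 0.0403, and Cyp2ab1 was listed at 0.

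Most of these genes lie in tandem clusters, groups in which neighbouring members are less than 1 Mb apart. In mm9 coordinates the clusters were a Cyp2c cluster of 14 genes (chr19:39081509-40261823), a mixed Cyp2a, Cyp2b, Cyp2f, Cyp2g, Cyp2s and Cyp2t cluster of 13 (chr7:26587494-27951821), the Cyp2d cluster of 8 (chr15:82200958-82624675), the Cyp2j cluster of 7 (chr4:95694225-96330845) and a Cyp3a cluster of 6 (chr5:146106148-146924861). At the minimum were 9 of the 14, 6 of the 13, 4 of the 8, 2 of the 7 and 2 of the 6. Each cluster also held at least 1 gene listed at 0 in both libraries, as the plot of levels in map order shows. In the chr7 cluster Cyp2b19 at 0 lay between Cyp2a4 and Cyp2a5, both above 20 FPKM in either library. As background, such clusters arose by gene duplication. Of the 54 genes, 27, and 15 of those at the minimum, shared over 20% of their 25-base words with transcripts of other genes. Among the genes with less sharing were Cyp2c44, Cyp2c70, Cyp2d22, Cyp2d26, Cyp2j6, Cyp2r1 and Cyp3a13.

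Sequences upstream of the gene starts show how alike some neighbours are. RefSeq promoter windows on GRCm38.p6 matched 47 of the 54 genes with 50 windows. The 200 bases from 250 to 51 before the start were compared in 146 pairs of one subfamily, with a median identity of 53.1% and a lowest of 40.4%. In 5 pairs the identity was at least 90%, and the 4 of these with a gene at the minimum are printed, because they set near-identical upstream sequence beside like or unlike levels. They were chosen after the levels were seen. Capitals mark bases that differ between the aligned pair or have no partner in it, and each sequence runs 5′ to 3′ on the gene's strand.

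The upstream windows of Cyp2b13 (chr7:26061245-26061444, plus strand) and Cyp2b9 (chr7:26173159-26173358, plus strand) were 99.0% identical, with 2 substitutions and 0 gaps.
Cyp2b13: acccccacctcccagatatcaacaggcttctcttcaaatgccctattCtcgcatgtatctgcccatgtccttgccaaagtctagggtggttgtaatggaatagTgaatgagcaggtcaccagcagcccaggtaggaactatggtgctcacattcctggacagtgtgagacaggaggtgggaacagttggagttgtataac
Cyp2b9: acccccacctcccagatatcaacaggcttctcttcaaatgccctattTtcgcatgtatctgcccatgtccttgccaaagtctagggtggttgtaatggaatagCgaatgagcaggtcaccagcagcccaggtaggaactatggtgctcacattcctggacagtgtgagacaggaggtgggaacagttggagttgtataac
Beside this the FPKM of Cyp2b9 was 10.2 times that of Cyp2b13 in DMSO and 5.40 times in GW3965. These folds rest on about 14 and 27 fragments of Cyp2b13. Each window holds AGGTCA, the core motif of many nuclear receptor sites, at 138 bases before the start. Of the 25-base words of the transcripts of each, 24.8% occur in those of the other, so most of their transcript sequence tells this pair apart. Over transcripts of all other genes the share was 48.8% for Cyp2b13 and 34.0% for Cyp2b9, so the division of reads is uncertain.

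The windows of Cyp2a4 (chr7:26306942-26307141, plus strand) and Cyp2a5 (chr7:26835089-26835288, plus strand) were 97.5% identical, with 3 substitutions and 2 unpaired bases.
Cyp2a4: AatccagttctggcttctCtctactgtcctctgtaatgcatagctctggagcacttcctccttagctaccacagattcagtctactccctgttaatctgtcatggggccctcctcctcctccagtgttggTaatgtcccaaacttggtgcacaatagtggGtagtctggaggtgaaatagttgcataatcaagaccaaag
Cyp2a5: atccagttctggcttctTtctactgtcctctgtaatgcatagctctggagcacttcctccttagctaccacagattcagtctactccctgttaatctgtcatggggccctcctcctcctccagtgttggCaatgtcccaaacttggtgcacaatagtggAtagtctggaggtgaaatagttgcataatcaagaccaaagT
Here the levels were alike in DMSO, 1.01-fold apart, and 1.21-fold apart in GW3965, with Cyp2a5 the higher.

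The windows of Cyp3a16 (chr5:145469774-145469973, minus strand) and Cyp3a44 (chr5:145805925-145806124, minus strand) were 92.6% identical, with 7 substitutions and 8 unpaired bases.
Cyp3a16: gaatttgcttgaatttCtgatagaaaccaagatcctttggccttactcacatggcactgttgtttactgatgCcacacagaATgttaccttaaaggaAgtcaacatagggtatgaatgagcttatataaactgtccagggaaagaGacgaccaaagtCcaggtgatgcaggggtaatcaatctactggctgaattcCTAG
Cyp3a44: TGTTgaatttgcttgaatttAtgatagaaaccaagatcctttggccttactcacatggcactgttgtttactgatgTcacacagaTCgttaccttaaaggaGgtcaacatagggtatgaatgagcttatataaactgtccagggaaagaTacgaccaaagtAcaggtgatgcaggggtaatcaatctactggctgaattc
The FPKM of Cyp3a44 was 9.06 times that of Cyp3a16 in DMSO and 26.1 times in GW3965, the latter resting on about 5 fragments of Cyp3a16. AGGTCA occurs at 150 bases before the start of Cyp3a44, where one of the substitutions falls, and it does not occur in the printed window of Cyp3a16.

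The windows of Cyp2c68 (chr19:39741152-39741351, minus strand) and Cyp2c69 (chr19:39886820-39887019, minus strand) were 91.6% identical, with 11 substitutions and 6 unpaired bases.
Cyp2c68: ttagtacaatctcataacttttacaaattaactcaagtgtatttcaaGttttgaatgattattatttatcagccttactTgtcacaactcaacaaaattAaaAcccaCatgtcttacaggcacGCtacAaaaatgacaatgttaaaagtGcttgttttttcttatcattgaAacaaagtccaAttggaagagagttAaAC
Cyp2c69: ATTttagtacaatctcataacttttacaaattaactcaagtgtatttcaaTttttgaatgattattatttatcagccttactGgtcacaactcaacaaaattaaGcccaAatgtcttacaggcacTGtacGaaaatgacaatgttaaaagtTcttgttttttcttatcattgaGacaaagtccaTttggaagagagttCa
The FPKM of Cyp2c68 was 3.21 times that of Cyp2c69 in DMSO and 2.90 times in GW3965. TGAACT, another core motif, occurs on the opposite strand at 56 bases before the start of Cyp2c69 and not in the printed window of Cyp2c68. Over the 4 pairs, near-identical upstream sequence thus stood beside levels from 1.01-fold to 10.2-fold apart in DMSO. The 10.2-fold rested on about 14 fragments of Cyp2b13 and the 9.06-fold on about 10 of Cyp3a16. The division of reads is uncertain where transcripts share words.

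**Figure D4:**
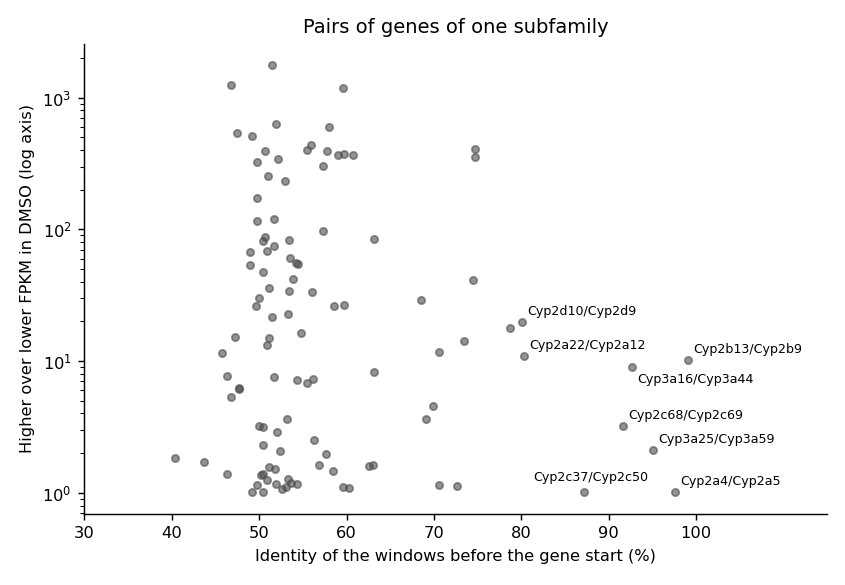
Each point is a pair of genes of one subfamily with both levels above 0, with the identity of their windows before the gene start (%) on the horizontal axis and the higher over the lower FPKM in DMSO on a log vertical axis. Named pairs have an identity of at least 80%, and those of at least 90% spread from Cyp2a4 with Cyp2a5 at 1.01-fold to Cyp2b13 with Cyp2b9 at 10.2-fold. The latter rests on about 14 fragments of Cyp2b13, and the 9.06-fold of Cyp3a16 with Cyp3a44 on about 10 of Cyp3a16.

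In the whole windows, from 250 bases before to 50 after the start, AGGTCA on either strand occurred in 19 of the 50 windows, 38%, against 16.3% of all 32851 windows. The 19 windows belong to 18 genes, among them near-identical neighbours that are not independent. TGAACT occurred in 6 of 50, 12%, against 13.99% of all windows. Exact pairs of AGGTCA as a direct repeat with a spacer of 3, 4 or 5 bases, an everted repeat with a spacer of 6 or 8, or an inverted repeat with a spacer of 1 occurred in 0 of the 50 windows, and each in at most 0.0365% of all windows. Such a match is a description of letters, and the absence of one says only that they are not in this window.

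Of the 7 electron partners of P450 enzymes at the minimum, 0 passed 1.5-fold in either direction, with a median log2 ratio of 0.06. Por, the reductase, stood at 87.2 and 91.0, and the highest ratio was that of Pgrmc2, a haem-binding membrane protein (15.2 and 17.4, 0.18), followed by Cyb5b, a cytochrome b5 (61.3 and 68.3, 0.15), and Cyb5r4, a cytochrome b5 reductase (24.7 and 26.1, 0.08). Among 13 genes of haem synthesis and breakdown, 1 was higher, 0 lower, and the median was -0.07. The one was Hmox1, which breaks haem down, at 71.2 in DMSO and 130.5 in GW3965 (log2 ratio 0.86, q = 0.00752 in the authors' deposited table). The next in size were Uros (0.17), Blvra (-0.16) and Alad (-0.15). Alas1, the rate-limiting enzyme of haem synthesis, stood at 40.3 and 42.4, and is named after its value was seen.

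Among 16 xenosensors and partners at the minimum, 0 passed 1.5-fold in either direction with 1 added to each FPKM. Their median log2 ratio was -0.03. Nr1h4, the bile acid receptor FXR, had the largest ratio in size, at 4.47 and 2.65 (-0.58), followed by its target Nr0b2 at 1.88 and 1.12 (-0.44). By plain FPKM the log2 ratio of each was -0.75, which is past 1.5-fold lower. Nr1i2 (PXR) stood at 1.72 and 1.23 and Nr1h3 (LXRα) at 20.04 and 16.3, each with a log2 ratio of -0.29. Nr1i3 (CAR) lay under the minimum at 0.197 and 0.152, and is named after its value was seen. Among 16 liver transcription factors known to drive P450 genes, 0 were higher and 1 was lower, Onecut1 (1.24 and 0.409, -0.67), with a median of -0.15. Onecut1 reached the minimum only in DMSO, where it was higher, so nothing is read from this count. Over all genes at the minimum, 1.33% were lower. Hnf4a, a main factor of hepatocyte identity, stood at 49.4 and 37.4 (-0.39), Onecut2 at 12.2 and 17.7 (0.50), and Tef at 9.47 and 7.06 (-0.38). Of the receptors that induce Cyp2b and Cyp3a genes, PXR thus lay above the minimum, at 1.72 and 1.23, and CAR under it. Whether their levels bear on those of the Cyp2b and Cyp3a genes was not tested.

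Among 30 CAR and PXR targets outside the P450 families, 3 were higher and 2 lower by the 1.5-fold rule, and the median log2 ratio was 0.09. Over all genes at the minimum, 1.02% were higher and 1.33% lower. The higher ones were the estrogen sulfotransferase Sult1e1 (5.03 and 17.7, 1.64), the drug exporter Abcb1a (13.8 and 28.7, 1.00) and the sulfotransferase Sult1d1 (17.8 and 29.3, 0.69). The lower ones were the retinal dehydrogenase Aldh1a1 (244 and 112, -1.12) and its relative Aldh1a7 (6.06 and 3.66, -0.60). Of these 5, Sult1e1 and Aldh1a1 were called in the authors' deposited table. The ratio of Abcb1a is poorly fixed, with a standard error of 1.56 on a plain log2 ratio of 1.06. Genes picked by this rule must lie outside the range of the Cyp2 and Cyp3 genes, -0.28 to 0.45. No contrast with those genes is therefore read from these 5.

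In other P450 families of the liver, 1 of 17 genes at the minimum was at least 1.5-fold higher and 0 lower, with a median log2 ratio of -0.03. The one was Cyp1a2, a target of the aryl hydrocarbon receptor, at 13.4 in DMSO and 57.0 in GW3965 (2.01). The next in size were Cyp26a1 (23.9 and 16.9, -0.48) and Cyp26b1 (-0.36), which break down retinoic acid, and Cyp4f15 (0.34). Cyp4f15 reached the minimum only in GW3965. Among 13 pericentral genes, Cyp1a2 was higher and Aldh1a1 lower, the median was 0.01, and Slc1a2 (0.47) and Lect2 (-0.28) came next. Among 10 periportal genes 0 passed 1.5-fold in either direction, the median was -0.04, and the largest in size were Hsd17b13 (-0.43), Pigr (-0.39), Sdsl (-0.34) and Arg1 (0.26).

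Of 6 genes at the minimum known as higher in female mouse liver, 0 passed 1.5-fold in either direction and the median log2 ratio was 0.09. The list of genes known as higher in males had Cyp2c44 alone at the minimum, at 0.09. Among 10 regulators of sex-biased and growth hormone-dependent expression, Onecut1, at the minimum only in DMSO, was again the lower one and 0 were higher. Their median was 0.07, and Cish (0.53), Socs2 (-0.24) and Prlr (0.23) came next in size. Of 10 epoxide hydrolases and P450 enzymes that oxidise arachidonic acid, 0 passed 1.5-fold, and the median was 0.05. Ephx2, the soluble epoxide hydrolase, had the largest ratio in size (25.3 and 19.0, -0.40). Of 4 vitamin D genes 0 passed 1.5-fold and the median was -0.08, with Dhcr7 at 0.28 and Gc at -0.16. Of 14 inflammatory genes, of a kind known to move against P450 genes, 0 passed 1.5-fold and the median was -0.07, with Saa3 (-0.51), Hp (-0.42), Tnf (-0.19) and Il1b (-0.17) the largest in size.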

How the data were processed

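RNA was sequenced from 1 DMSO and 1 GW3965 culture with a TruSeq kit, per the labels. Cuffdiff, Cufflinks 2.0.2, TopHat2 2.0.6 and CASAVA, with the mouse builds NCBIM37 and mm9, are named in the submitters' processing notes. Settings and strand handling are not stated there. Values are FPKM deposited by the authors, fragments scaled to transcript length and library size. How reads that fit several near-identical genes were divided among them is not stated either. The deposited test statistic is a score of the authors, and per the file headers each gene also has a p-value and a q-value of the authors.

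Of 36808 rows, 7 marked as holding too many fragments were left out, 0 of them Cyp2 or Cyp3 genes. Ratios are log2 of the GW3965 over the DMSO value after adding 1 to each FPKM, which understates changes of low genes. They were counted for genes that reached an FPKM of 1 in one library or both, past a size of 1.5-fold. By plain FPKM, listed genes such as Nr1h4, Nr0b2, Cish, Slc1a2 and Cyp4f15 were past 1.5-fold though not counted so. A gene that reached an FPKM of 1 in only 1 library was admitted through its higher value. Onecut1 and Clec4g were so admitted through DMSO, and Cyp4f15 through GW3965. No p-value or SD could be computed from 1 library in each group. The standard error beside a ratio is the size of the plain log2 FPKM ratio over that of the authors' score. Depth came from the low values: the ratio of DMSO over GW3965 found most often, 1.24 at 574 of 4407 low genes, is 1 fragment against 1, and 235 of 960 genes with 1 transcript set the absolute scale, with 150 bases taken from each length. Fragment numbers are estimates, and exact conditional binomial intervals from them cover counting error only.

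Transcripts and lengths came from GENCODE M21 (GRCm38), matched for 51 genes by identifier and 3 by symbol. Positions of genes are those of the table in mm9, with 1 added to the start. Promoter windows came from RefSeq on GRCm38.p6 and were aligned globally. A comparison of the proteins was planned and not run, since no protein table was used here. Columns of per-sample values not used numbered 0.

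The genes and lists were chosen with earlier results of these data known. Every gene of the rule at the minimum is named, and up to 4 genes per other list with the largest ratios in size; others are said to be chosen after their values were seen. Alternatives were other pseudocounts, minimum FPKM values, scalings, a 2-fold size, the genes the authors tested, a wider rule for symbols and removal of genes with shared sequence. The size rule was tested on simulated data. The tools were Python 3.11.15, Biopython 1.88, matplotlib 3.10.9, scipy 1.17.1, pandas 2.3.3 and numpy 2.4.6.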

Additional observations from a re-analysis of the deposited data

How the results depend on the processing

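Under the 10 alternatives the number of Cyp2 and Cyp3 genes past the size threshold was 0 higher and 0 lower each time. For 5 of them this could not have been otherwise, since a pseudocount of 5, a minimum FPKM of 5, a 2-fold size, the genes the authors tested and the removal of shared sequence can only shorten the list. A pseudocount of 0.1, no minimum FPKM and both scalings could have added genes. The wider rule for symbols brought in only genes under the minimum, so with their levels it could not add to the count either. The median log2 ratio lay between 0.02 without a minimum FPKM and 0.07 with a pseudocount of 0.1. The number of genes at the minimum was 27 as reported, 17 at a minimum FPKM of 5, 45 without a minimum and 12 without genes of shared sequence, each following from the number of genes admitted. Under other pseudocounts and scalings, 0 of 104 ratios of genes with a counting interval moved by more than that interval's spread to either side, and 0 of 4 ratios of Cyp2d40 and 0 of 36 subfamily medians, which have no interval of their own, moved by more than 0.15, the median of that spread. No paired analysis was possible because there was 1 library in each group. Leaving out a replicate was likewise not possible. Depth limits genes under the minimum most, and for recent duplicates the authors' division of shared reads adds an error that the counting intervals leave out.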
